A study of Homo sapiens with 7 samples.

Results

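The genes described here are 35 genes widely used as markers of the transcriptional response to estrogen, out of 19974 protein-coding genes in the RefSeq GRCh38 gene table. A peak was assigned to a gene when its summit lay in the span of the gene or within 50 kb of it, and this interval is called the window of the gene. Peaks came from chromatin immunoprecipitation and sequencing (ChIP-seq) of the nuclear receptor PPARα in HepG2, a human line derived from a liver cancer. The question put to the lists was whether the windows of the 35 genes held peaks with an estrogen receptor that were absent without one, more often than the windows of other genes did.

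In the PPARα+ERα group, HepG2 cells received expression vectors for PPARα and for estrogen receptor α. They were given the ERα agonist PPT at 10 nM for 45 min, 48 h after transfection, and then the PPARα agonist WY14643 for a further 2 h. In the PPARα+ERβ group the added vector encoded a FLAG-tagged estrogen receptor β, and the agonist given first was DPN, also at 10 nM. In the PPARα group the cells received the PPARα vector alone and WY14643 at 10 µM for 2 h. All 3 groups therefore carried extra PPARα from a vector and had its agonist, and the estrogen receptors too were supplied from vectors, so a receptor and its agonist always came together. Each group had 2 libraries with a peak list, and nothing in the labels says that they came from separate cultures. A sample without antibody was not analysed here. Peak lists hold no expression values, so neither the identity of the line nor the level of any receptor could be checked against marker genes.

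Estrogen receptors are ligand-activated transcription factors that bind DNA as dimers at estrogen response elements, inverted repeats of a hexamer with a spacer, and they also reach DNA through other factors. PPARα, a receptor for fatty acids and for fibrate drugs, binds direct repeats of a similar hexamer together with the retinoid X receptor. In breast cancer cells the best studied estrogen-bound sites of GREB1, TFF1, XBP1 and NRIP1 lie both near and far from the start sites, and the genes are induced within hours of adding hormone.

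Promoter sequences were looked up first, because a peak at a start site could be read directly against the gene. RefSeq promoter windows, from 250 bases before to 50 after a start site, were on hand for 24 of the 35 genes, and for 33 start sites in all. TFF1, TFF3, GREB1, CCND1, MYC, EBAG9, EGR3, KRT13, KRT19, SGK3 and FKBP4 had no entry. A peak overlapped 0 of these 24 promoters in each of the 6 libraries. Among the 15812 protein-coding genes with a promoter entry, the overlapped share was 0.594% and 0.721% in the PPARα+ERα libraries, 0.519% and 0.613% in the PPARα+ERβ libraries and 0.405% and 0.601% in the PPARα libraries, so fewer than 1 of 24 would be met at those shares. A summit lay within 1 kb of a RefSeq start site in 3 genes, and in each of them in 1 library. That is 1 of 24 genes in PPARα+ERα library 1 and 2 of 24 in PPARα+ERβ library 2, where 2.12% and 2.18% of the 15812 genes had one, and 0 of 24 in the other 4 libraries, where 1.55% to 2.56% had one. TPD52L1, which encodes a coiled-coil protein of the D52 family, had one 815 bases after its start in PPARα+ERα library 1. LTF, the iron-binding lactoferrin, had one 597 bases before its second start in PPARα+ERβ library 2. CTSD, a lysosomal protease, had one 710 bases before its start in PPARα+ERβ library 2. FOXA1, a pioneer factor for estrogen receptors in breast cells, is added because both PPARα+ERα libraries had a summit 1.62 kb before its start, and was chosen after its values were seen. Within 2 kb of a start, 2 of 24 genes had a summit in each PPARα+ERα library, FOXA1 with TPD52L1 in library 1 and with MYB in library 2, where 5.15% and 5.69% of the 15812 genes had one. XBP1 had one within 2 kb after a start in both PPARα libraries and in no other, where 3.86% and 6.42% of genes had one.

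The promoters of these 4 genes follow, from RefSeq GRCh38.p14, 5′ to 3′ on the strand of the gene. Capitals mark each match, on either strand, to any of the searched motifs.
TPD52L1 promoter, chr6:125153996-125154295, plus strand: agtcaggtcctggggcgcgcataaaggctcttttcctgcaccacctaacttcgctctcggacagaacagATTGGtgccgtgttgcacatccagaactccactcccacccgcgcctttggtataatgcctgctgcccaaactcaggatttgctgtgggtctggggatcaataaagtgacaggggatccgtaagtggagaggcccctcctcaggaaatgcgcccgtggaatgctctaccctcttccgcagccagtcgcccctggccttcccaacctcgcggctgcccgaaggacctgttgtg
LTF promoter, chr3:46464856-46465155, minus strand: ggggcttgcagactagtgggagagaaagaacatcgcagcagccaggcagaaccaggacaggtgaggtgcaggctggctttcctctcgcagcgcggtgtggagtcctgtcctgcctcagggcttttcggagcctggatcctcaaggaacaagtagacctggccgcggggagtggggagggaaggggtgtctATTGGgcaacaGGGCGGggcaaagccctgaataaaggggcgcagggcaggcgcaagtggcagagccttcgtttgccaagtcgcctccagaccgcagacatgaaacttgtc
CTSD promoter, chr11:1763878-1764177, minus strand: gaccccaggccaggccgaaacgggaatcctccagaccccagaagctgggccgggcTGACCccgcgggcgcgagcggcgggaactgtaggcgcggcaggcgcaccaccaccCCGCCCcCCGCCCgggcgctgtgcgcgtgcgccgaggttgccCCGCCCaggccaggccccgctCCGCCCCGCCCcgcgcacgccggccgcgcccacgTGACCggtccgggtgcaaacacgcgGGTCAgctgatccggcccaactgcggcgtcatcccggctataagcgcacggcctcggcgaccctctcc
FOXA1 promoter, chr14:37595200-37595499, minus strand: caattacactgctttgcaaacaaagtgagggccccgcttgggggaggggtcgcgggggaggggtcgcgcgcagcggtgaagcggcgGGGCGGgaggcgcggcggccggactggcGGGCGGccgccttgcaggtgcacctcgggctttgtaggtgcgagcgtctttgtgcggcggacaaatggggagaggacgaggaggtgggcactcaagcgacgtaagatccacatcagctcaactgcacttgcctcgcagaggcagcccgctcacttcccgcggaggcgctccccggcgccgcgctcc

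Motifs were searched on both strands of every RefSeq promoter of a protein-coding gene, 22132 in all. The full estrogen response element, GGTCA followed after 3 bases of any kind by TGACC, was in 0 of the 33 promoters of the estrogen response genes and in 0.0361% of all promoters. The direct repeat of AGGTCA with 1 base of any kind between the copies, the form that PPARα binds with its partner, was in 0 of the 33 and in 0.0226% of all. The single core GGTCA, which lies inside both longer motifs, was in 12 of the 33 (36.4%) against 35.6% of all, and of the 4 promoters printed only that of CTSD holds it. The GC box GGGCGG was in 26 of the 33 (78.8%) against 56.3% of all, the CCAAT box CCAAT in 8 (24.2%) against 34.6%, and the AP-1 site TGANTCA in 1, a PKIB promoter, against 6.15%. No difference between these shares was tested, and the printed windows lie outside every called peak.

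The lists held 24505 and 27544 peaks in the PPARα+ERα libraries, 17457 and 23302 in the PPARα+ERβ libraries and 23805 and 36302 in the PPARα libraries. The PPARα+ERα libraries stood apart from the other 4 in the kind of peak called. The number of fragments at a summit and the background expected there were worked back from the fold and p-value of each peak. Peaks in the windows of the 35 genes had medians of 10 and 10 fragments in the PPARα+ERα libraries, 28 and 33 in the PPARα+ERβ libraries and 39 and 58.5 in the PPARα libraries. Their median background, as a multiple of the genome-wide level of the library, was 2.15 and 1.33 in the PPARα+ERα libraries, 9.89 and 9.74 in the PPARα+ERβ libraries and 13.5 and 16.9 in the PPARα libraries. The genome-wide level was taken as the lowest background found at any called peak of the list. It was 0.390 and 0.419 fragments with ERα, 0.585 and 0.709 with ERβ and 0.588 and 0.677 with PPARα alone. Whether this difference in kind of peak had a part in the results below was not tested, and the number of sequenced reads is not given in the sources used here.

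**Figure D1:**
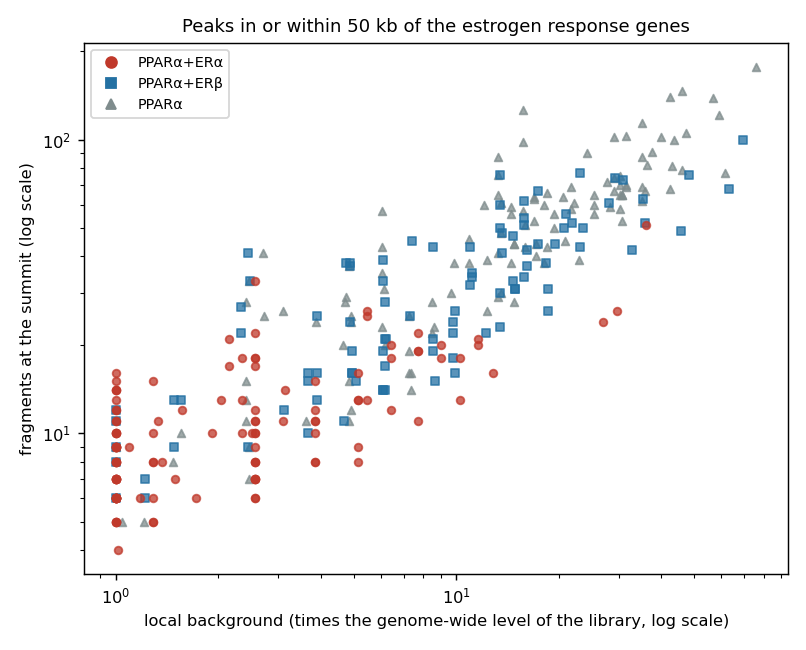
Each point is a peak in the window of an estrogen response gene, with its local background relative to the genome-wide level of the library on the horizontal axis and the fragments at its summit on the vertical axis, both on log scales. The PPARα+ERα peaks sit at lower values on both axes, with 4 to 51 fragments, than the PPARα+ERβ peaks with 6 to 100 and the PPARα peaks with 5 to 177.

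The windows of the 35 genes, which cover 4.84 Mb after merging, held 55 and 70 peaks in the PPARα+ERα libraries, 39 and 57 in the PPARα+ERβ libraries and 37 and 84 in the PPARα libraries. As a share of the list this was 0.224% and 0.254% with ERα, 0.223% and 0.245% with ERβ and 0.155% and 0.231% with PPARα alone. The shares averaged 0.239% ± 0.0210 (SD, n = 2) with ERα and 0.234% ± 0.0150 (SD, n = 2) with ERβ, against 0.193% ± 0.0537 (SD, n = 2) with PPARα alone. The PPARα libraries differed from each other by more than their mean differed from either other mean. The ERβ and PPARα libraries overlapped, and ERα library 1 lay below PPARα library 2. An exact permutation test of 2 libraries against 2 cannot go below p = 0.333 (two-sided), so no comparison of groups here carries a p-value.

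Per megabase, the windows of the 35 genes held 11.4 and 14.5 peaks in the PPARα+ERα libraries, against 9.44 and 10.6 over the windows of all protein-coding genes. With ERβ they held 8.05 and 11.8 peaks, against 6.93 and 9.43 over all coding windows. With PPARα alone they held 7.64 and 17.3 peaks, against 8.96 and 14.4. The ratio of member windows to all coding windows was 1.20 and 1.36 with ERα, 1.16 and 1.25 with ERβ and 0.853 and 1.21 with PPARα alone, so PPARα library 1 was the library with fewer peaks at these genes than over coding windows at large.

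At least 1 peak lay in the windows of 23 and 29 of the 35 genes in the PPARα+ERα libraries, 22 and 27 in the PPARα+ERβ libraries and 21 and 31 in the PPARα libraries. Of all coding genes, 68.8% and 72.7% had one in the PPARα+ERα libraries, 62.5% and 73.1% in the PPARα+ERβ libraries and 69.2% and 83.8% in the PPARα libraries. A peak in all 6 libraries was found for 11 of the 35 genes (31.4%) and for 34.8% of coding genes. AREG, a ligand of the epidermal growth factor receptor, had no peak in any library, as had 4.84% of coding genes.

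**Figure D2:**
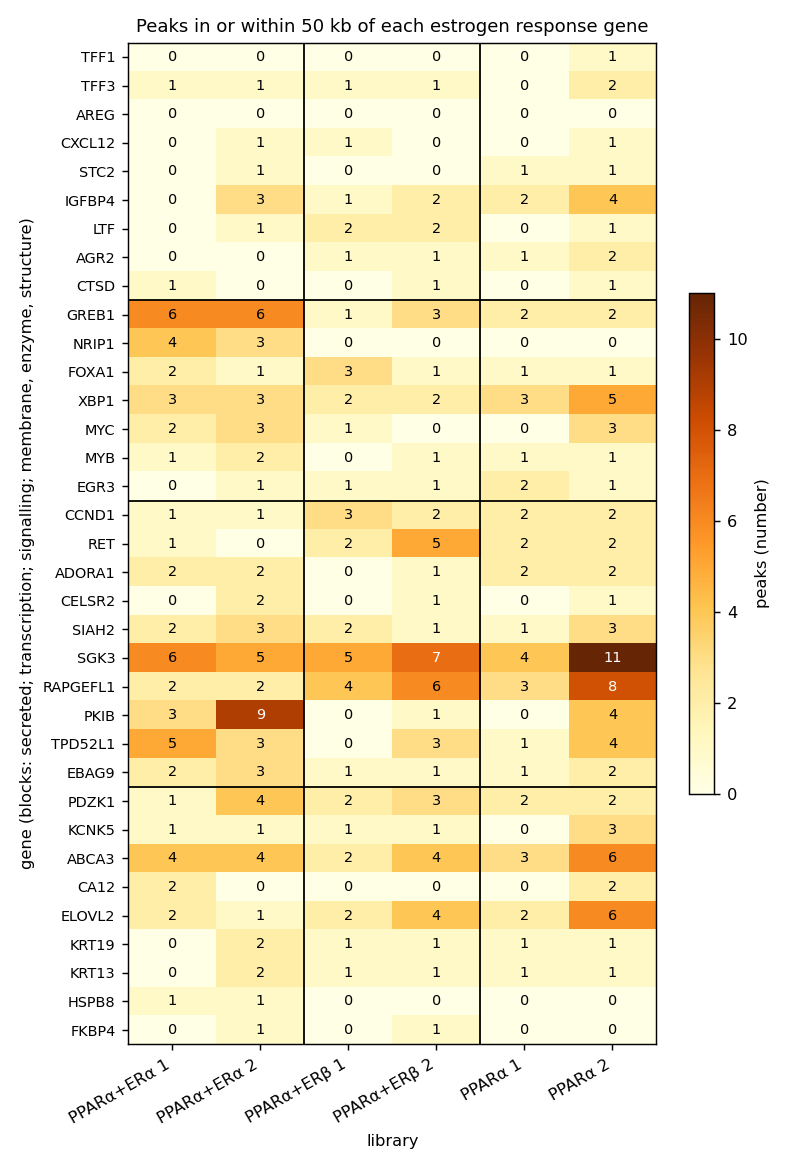
Number of peaks in or within 50 kb of each of the 35 genes (rows, in blocks by role) in each of the 6 libraries (columns), with darker cells for more peaks. GREB1 holds 6 and 6 peaks and NRIP1 4 and 3 in the PPARα+ERα libraries, SGK3 reaches 11 in PPARα library 2, and AREG is empty throughout.

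Among the transcriptional regulators, 2 genes separated the PPARα+ERα libraries from the other 4. GREB1, a cofactor of estrogen receptors, had 6 and 6 peaks in the PPARα+ERα libraries, 1 and 3 in the PPARα+ERβ libraries and 2 and 2 in the PPARα libraries. NRIP1, a corepressor of nuclear receptors also called RIP140, had 4 and 3 peaks in the PPARα+ERα libraries and 0 in each of the other 4. The ERα libraries lay above all the others for both genes, with no overlap. With HSPB8 this was so for 3 of the 35 genes (8.57%), against 8.81% of coding genes, a share near that of genes at large. FOXA1 had 2 and 1 peaks with ERα, 3 and 1 with ERβ and 1 and 1 with PPARα alone. XBP1, a transcription factor of the unfolded protein response, had 3 and 3 with ERα, 2 and 2 with ERβ and 3 and 5 with PPARα alone. MYC had 2 and 3 with ERα, 1 and 0 with ERβ and 0 and 3 with PPARα alone. For these 3 the ERα and PPARα libraries overlapped. MYB, a transcription factor of progenitor cells, had 0 to 2 peaks in any library, and so had EGR3, an immediate early transcription factor.

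The secreted proteins and those of the secretory and lysosomal routes held few peaks in every group. TFF1, a trefoil peptide and the classical estrogen-induced gene of breast cancer cells, had 1 peak in PPARα library 2 and none elsewhere. Its neighbour TFF3, whose window overlaps that of TFF1, had 1 and 1 with ERα, 1 and 1 with ERβ and 0 and 2 with PPARα alone. LTF had 0 and 1 with ERα, 2 and 2 with ERβ and 0 and 1 with PPARα alone, and its ERβ libraries lay above all the others, the only such case among the 35 genes (2.86%, against 0.761% of coding genes). IGFBP4, which binds insulin-like growth factors, had 0 and 3 with ERα, 1 and 2 with ERβ and 2 and 4 with PPARα alone. AGR2, a disulfide isomerase of the endoplasmic reticulum, had no peak with ERα, 1 and 1 with ERβ and 1 and 2 with PPARα alone. The chemokine CXCL12, the glycoprotein hormone STC2 and CTSD had 0 or 1 peak in each library.

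Genes of signalling and growth control carried the highest numbers. SGK3, a serine/threonine kinase, had 6 and 5 peaks with ERα, 5 and 7 with ERβ and 4 and 11 with PPARα alone. PKIB, an inhibitor of protein kinase A, had 3 and 9 with ERα, 0 and 1 with ERβ and 0 and 4 with PPARα alone. TPD52L1 had 5 and 3 with ERα, 0 and 3 with ERβ and 1 and 4 with PPARα alone. None of these 3 separated the ERα from the PPARα libraries. RAPGEFL1, related to exchange factors of Rap proteins, had 2 and 2 with ERα, 4 and 6 with ERβ and 3 and 8 with PPARα alone. RET, a receptor tyrosine kinase, had 1 and 0 with ERα, 2 and 5 with ERβ and 2 and 2 with PPARα alone. CCND1, the cell cycle protein cyclin D1, had 1 and 1 with ERα, 3 and 2 with ERβ and 2 and 2 with PPARα alone. In these 3 genes the ERα libraries held fewer peaks than any of the other libraries. With AGR2 this was so for 4 of the 35 genes (11.4%), against 8.54% of coding genes. The adenosine receptor gene ADORA1, the cadherin gene CELSR2, the ubiquitin ligase gene SIAH2 and EBAG9, a gene first described as a target of estrogen receptors, had 0 to 3 peaks in each library.

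Among the genes for membrane proteins, enzymes and structural proteins, HSPB8, a small heat shock protein, had 1 and 1 peaks with ERα and none in the other 4 libraries. PDZK1, a scaffold of membrane transporters, had 1 and 4 with ERα, 2 and 3 with ERβ and 2 and 2 with PPARα alone. ABCA3, a lipid transporter, had 4 and 4 with ERα, 2 and 4 with ERβ and 3 and 6 with PPARα alone. ELOVL2, an elongase of polyunsaturated fatty acids, had 2 and 1 with ERα, 2 and 4 with ERβ and 2 and 6 with PPARα alone. HSPB8 apart, no gene of this block separated ERα from both other groups. The potassium channel gene KCNK5, the carbonic anhydrase gene CA12, the keratin genes KRT13 and KRT19 and FKBP4, a cochaperone of steroid receptors, had 0 to 3 peaks in each library.

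To ask whether the same place was occupied, overlapping peaks of the 6 lists were merged into 92292 regions, of which 206 lay in the windows of the 35 genes. Of these, 124 had a peak in 1 library, 45 in 2, 21 in 3, 15 in 4 and 1, inside EBAG9, in 5. None had a peak in all 6 libraries, and 0.926% of coding genes had such a region in their window. Regions seen in both libraries made up 29 of the 96 regions seen with ERα (30.2%, against 20.5% over the whole list), 26 of 70 with ERβ (37.1% against 33.4%) and 32 of 89 with PPARα alone (36.0% against 41.4%). A region was counted as found in one group and absent from another when both libraries of the first and neither of the second had a peak in it. A missing peak says that none was called, not that the receptor was absent.

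**Figure D3:**
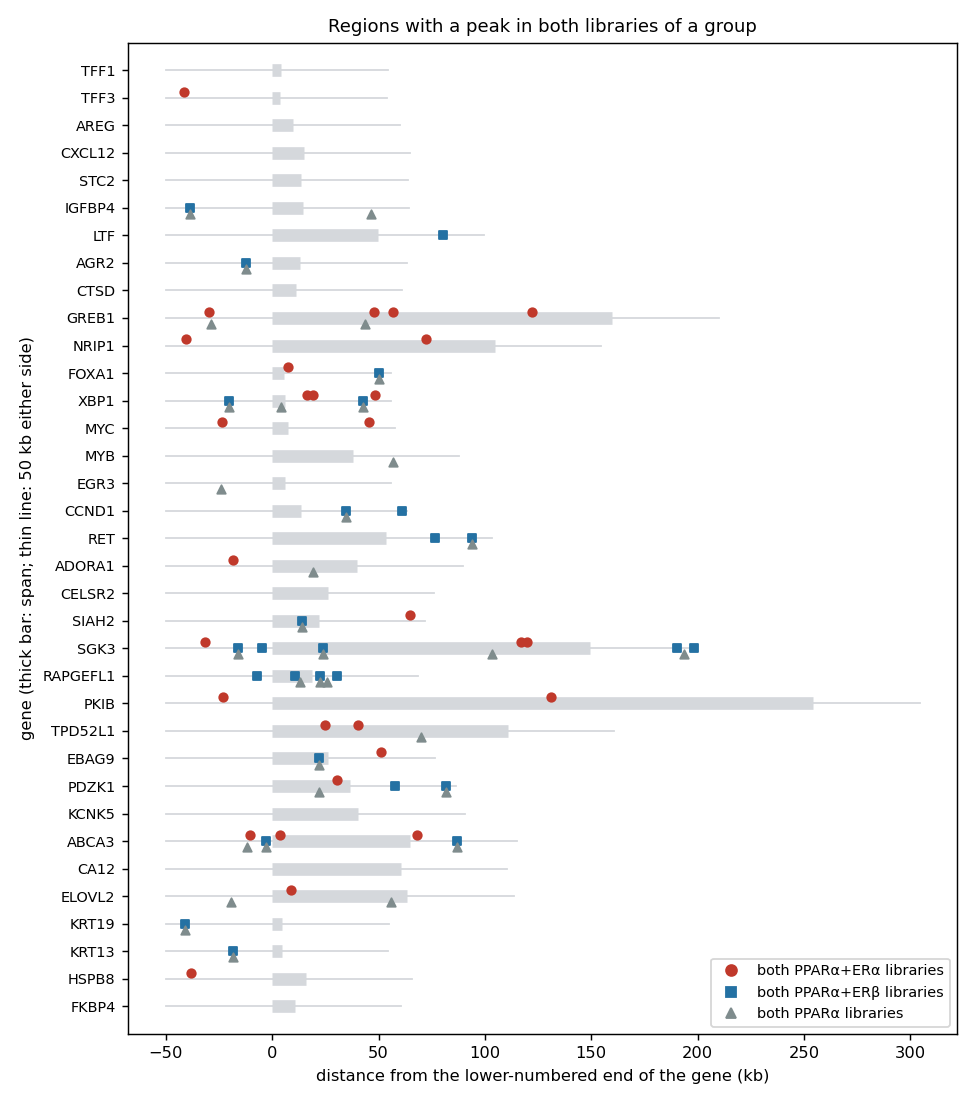
Regions held by both libraries of a group, by distance in kb from the lower-numbered end of each gene (thick bars are gene spans, thin lines the 50 kb on either side). Circles are PPARα+ERα regions, squares PPARα+ERβ regions and triangles PPARα regions. The circles stand apart from the squares and triangles, while squares and triangles often coincide. Over the whole lists too, 8434 of 8866 regions held by both PPARα+ERα libraries had no peak in either PPARα library.

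With ERα, 16 of the 35 genes (45.7%) had a region found in both PPARα+ERα libraries and in neither PPARα library, against 36.7% of all coding genes and 36.1% at the spans of the 35 genes. The 29 such regions amounted to 5.99 per Mb of the members' windows and 3.29 per Mb of all coding windows. For PPARα alone and not ERα the densities were 6.40 and 6.31, and for ERβ and not PPARα alone 0.826 and 0.625. For PPARα alone and not ERβ they were 1.03 and 1.93. For ERα and not ERβ they were 5.78 and 3.14, and for the opposite 4.96 and 3.60. By role the 29 regions with ERα lay at 5 of 7 transcriptional regulators and 6 of 10 signalling genes. They also lay at 4 of 9 genes for membrane proteins, enzymes and structural proteins and 1 of 9 genes for secreted, secretory and lysosomal proteins. The split was much alike for regions found with PPARα alone and not with ERα. In the same order of roles, these lay at 5 of 7, 7 of 10, 5 of 9 and 2 of 9 genes. This grouping was made after the values were seen and was not tested. Without PPARα+ERα library 1 the count was 28 of 35 (80.0%), against 71.1% of coding genes, but without library 2 it was 23 (65.7%), against 67.1%, so that the members no longer stood above genes at large. With windows of 10 kb it was 9 (25.7%), against 20.2%, and within 3 kb of a gene end it was 1 (2.86%), against 4.37%. Among peaks whose background was at most 3 times the genome-wide level it was 13 (37.1%), against 29.7%.

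GREB1 had 4 of these regions, 3 of them inside the gene. The highest ranked, chr2:11539474-11539814, had no peak in the other 4 libraries. It had 22 and 33 fragments in the PPARα+ERα libraries, where the authors' folds were 11.5 and 16.4. It lay in the highest 10% of both PPARα+ERα lists by −log10 q, as did the neighbouring chr2:11530405-11530888 with 17 and 21 fragments. The third, chr2:11604736-11605159, had 10 and 18 fragments. A peak in both PPARα libraries and in PPARα+ERβ library 1, at chr2:11526165-11526571, also lay inside GREB1 and had 81 and 140 fragments in the PPARα libraries. GREB1 thus held different regions with and without ERα, which was the rule over the whole lists and not particular to this gene. There, 8434 of the 8866 regions found in both PPARα+ERα libraries had no peak in either PPARα library.

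NRIP1 had 2 of these regions, and they too lay in the highest 10% of both PPARα+ERα lists. One, chr21:14920497-14920919, lay 40.4 kb outside the gene in no coding span and had 14 and 16 fragments. The other, chr21:15033228-15033660, lay inside NRIP1 with 17 and 18 fragments. No library of PPARα+ERβ or PPARα had any peak in the window of NRIP1. The same held for HSPB8, whose region chr12:119140379-119140772 had 11 and 8 fragments and lies in SRRM4. A window with peaks in both PPARα+ERα libraries and none in the other 4 was thus found for 2 of the 35 genes (5.71%), against 2.43% of coding genes.

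FOXA1 had 1 region with ERα, chr14:37596684-37597020, upstream of its start and inside the span of the neighbouring gene TTC6, with 25 and 26 fragments and folds of 8.29 and 8.19. TFF3 had 1, chr21:42270267-42270621, with 12 and 14 fragments, and PPARα+ERβ library 1 also had a peak there with 6 fragments. It lies 41.3 kb from TFF3 in ABCG1, a cholesterol transporter gene. With those of GREB1 and NRIP1, these made 6 regions of 4 genes in the highest 10% of both PPARα+ERα lists. Such a region was found for 11.4% of the 35 genes and 5.12% of coding genes, a threshold set after the values were seen. Under the same threshold, 2 of the 35 genes (5.71%), IGFBP4 and XBP1, had a region found with PPARα alone and not with ERα, against 6.88% of coding genes. For ERβ and not PPARα alone it was 1 gene, RAPGEFL1 (2.86% against 0.456%), and for the opposite 0 genes (against 0.711%). At the other end, XBP1 had 3 regions, the highest ranked being chr22:28810255-28810891 with 19 and 22 fragments, 10.2 kb outside the gene. Another, chr22:28813615-28814295, had 26 and 24 fragments over a background 29.5 and 27.0 times the genome-wide level.

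The other genes with a region found with ERα follow. TPD52L1 had 2, led by chr6:125178620-125178990 inside the gene with 12 and 10 fragments. ELOVL2 had 1 inside the gene, chr6:10989639-10990043, with 15 and 8 fragments, and PDZK1 had 1 inside the gene, chr1:145701204-145701619, with 8 and 8. Each of these had no peak in the other 4 libraries. ABCA3 had 3, led by chr16:2279297-2279757 inside the gene with 8 and 11 fragments. PKIB had 2, led by chr6:122602964-122603494 inside the gene with 16 and 13 fragments. Its lower ranked region, chr6:122448109-122448803 in SERINC1, had 21 and 16 fragments. SIAH2 had 1, chr3:150805754-150806107, with 6 and 10 fragments, and ADORA1 had 1, chr1:203109207-203109606, with 7 and 6. In at least 1 of the PPARα+ERα lists, the regions of ABCA3, PKIB, SIAH2 and ADORA1 named here ranked in the lower part by −log10 q. MYC had 2 regions, the higher ranked with 12 and 13 fragments 23.8 kb outside the gene and the lower with 9 and 10. SGK3 had 3, with 5 to 10 fragments, all in a read-through gene that overlaps SGK3 and some of them also inside SGK3 itself. EBAG9 had 1, with 6 and 9 fragments, in SYBU.

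Over all 29 regions, the fragments had a median of 11 (range 5 to 33) and the background a median of 2.25 times the genome-wide level (range 1.00 to 29.5). Of the 29, 12 lay inside the gene itself, 8 in the span of another coding gene and 9 in neither.

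In the opposite direction, 19 of the 35 genes (54.3%) had a region found in both PPARα libraries and in neither PPARα+ERα library, against 58.9% of coding genes, a share near that of genes at large. The 32 gene and region pairs had a median of 43.5 fragments (range 7 to 140) over a background of 2.41 to 42.9 times the genome-wide level. AGR2 had 1, chr7:16779260-16779791 in the neighbouring gene TSPAN13, with no peak with ERα, 33 and 41 fragments with ERβ and 33 and 28 with PPARα alone. The keratin genes KRT13 and KRT19 shared 1 region, chr17:41482348-41482770, with no peak with ERα, 56 and 77 fragments with ERβ and 59 and 90 with PPARα alone. CCND1 had 1, chr11:69675922-69676528, with no peak with ERα, 73 and 74 fragments with ERβ and 65 and 102 with PPARα alone. In each of these the ERβ libraries held the same region as the PPARα libraries.

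Of the others, XBP1 had 3, led by chr22:28773782-28774248 in CCDC117 with 61 and 76 fragments in the PPARα libraries. IGFBP4 had 2, led by chr17:40404451-40405006 in TOP2A with 66 and 126 fragments, and FOXA1 had 1, chr14:37639887-37640236 in TTC6, with 61 and 65. All 3 leading regions also had a peak in both PPARα+ERβ libraries and none with ERα. ABCA3 had 3, led by chr16:2272506-2272983 with 51 and 98 fragments, RAPGEFL1 had 3, led by chr17:40202456-40203103 with 25 and 41, and SGK3 had 4, with 7 to 56. GREB1, PDZK1 and ELOVL2 had 2 each. That of PDZK1 at chr1:145752188-145752600, in RNF115, had 25 and 15 fragments in the PPARα libraries, and that of ELOVL2 at chr6:10961080-10961459, in SYCP2L, had 40 and 69. SIAH2, TPD52L1, MYB, EGR3, RET and ADORA1 had 1 each. They included chr3:150754987-150755337 inside SIAH2 with 43 and 57 fragments, chr6:125223717-125224232 inside TPD52L1 with 44 and 38, and chr10:43170903-43171370 in CSGALNACT2 beside RET with 39 and 57. The region of MYB, chr6:135237820-135238150, had 9 and 13 fragments, and that of EGR3, in BIN3, had 31 and 43. The members thus shared no single kind of position, since 10 of the 32 pairs lay inside the gene, 13 in another coding gene and 9 in neither. Without PPARα library 1, which left the longer list of the group, the count was 31 of 35, against 83.1% of coding genes. Among peaks whose background was at most 3 times the genome-wide level it was 4 (11.4%), against 13.1%.

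With ERβ, 4 of the 35 genes (11.4%) had a region found in both PPARα+ERβ libraries and in neither PPARα library, against 10.8% of coding genes. This is the share of genes at large. The comparison uses the same PPARα libraries as the one with ERα. RAPGEFL1 had chr17:40169431-40169757, in the neighbouring gene CASC3 and 7.42 kb outside RAPGEFL1, with 22 and 27 fragments and folds of 9.72 and 10.5 in the PPARα+ERβ libraries. PPARα+ERα library 1 also had a peak there, with 10 fragments. LTF had chr3:46515612-46515967, in LRRC2, with 21 and 19 fragments, and PDZK1 had chr1:145728163-145728516, in CD160, with 19 and 24. SGK3 had 1, in MCMDC2, with 26 and 32 fragments. All 4 regions lay in the span of a gene other than the member. Without PPARα+ERβ library 1 the count was 13 of 35 (37.1%, against 38.8% of coding genes). Without library 2 it was 10 (28.6%, against 28.2%), and with windows of 10 kb it was 1 (2.86%, against 5.22%).

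In the opposite direction, 5 of the 35 genes (14.3%) had a region found in both PPARα libraries and in neither PPARα+ERβ library, against 25.3% of coding genes. RAPGEFL1 had the highest ranked, chr17:40202456-40203103, where the folds in the PPARα libraries were 10.0 and 14.8 and neither estrogen receptor group had a peak. IGFBP4 had chr17:40489799-40490194, in TNS4, with 65 and 103 fragments. ADORA1 had chr1:203146628-203146973 inside the gene with 44 and 64, GREB1 had chr2:11454042-11454367 in E2F6 with 53 and 58, and XBP1 had chr22:28798269-28798783 inside the gene with 12 and 16. None of the 5 regions had a peak with ERα either. Without PPARα library 1 the count was 23 (65.7%, against 66.2% of coding genes), and without PPARα+ERβ library 2 it was 12 (34.3%, against 40.7%). With windows of 10 kb it was 3 (8.57%, against 13.1%), and with windows of 100 kb 10 (28.6%, against 37.9%).

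The 2 estrogen receptor groups were then set against each other. A region found in both PPARα+ERα libraries and in neither PPARα+ERβ library occurred at 15 of the 35 genes (42.9%), against 35.5% of coding genes. These were the 16 genes listed with ERα other than TFF3, and for all 15 the PPARα libraries lacked a peak there too. A region found in both PPARα+ERβ libraries and in neither PPARα+ERα library occurred at 14, against 43.0% of coding genes. In PDZK1, LTF and SGK3 the list includes a region absent from PPARα as well. In FOXA1, XBP1, AGR2, IGFBP4, KRT13, KRT19, SIAH2, ABCA3, CCND1, RET and RAPGEFL1 every such region had a peak in at least 1 PPARα library. That of AGR2, given above, ranked highest, followed by those of FOXA1 in TTC6 and XBP1 in CCDC117. The highest ranked of CCND1 was chr11:69701979-69702423 in FGF19, with 45 and 43 fragments in the PPARα+ERβ libraries, none with ERα and 38 in PPARα library 1. FOXA1 had 67 and 60 fragments in the PPARα+ERβ libraries at its region, XBP1 48 and 76 and IGFBP4 50 and 62 at the region in TOP2A. SIAH2 had 42 and 51, ABCA3 44 and 54 and RET 28 and 39 at the regions given above, PDZK1 16 and 24 in RNF115, and RAPGEFL1 21 and 22 at chr17:40207329-40207691. In the highest 10% of both lists, the first kind of region was found at 3 genes, GREB1, FOXA1 and NRIP1 (8.57%, against 4.78%). The second was found at 6, AGR2, CCND1, FOXA1, KRT13, KRT19 and XBP1 (17.1%, against 5.12%), with 1 region shared by the keratin genes. Without PPARα+ERα library 1 the first count was 27 (77.1%, against 70.1% of coding genes), but without library 2 it was 21 of 35, below the 66.2% of coding genes. Without PPARα+ERβ library 1 the second count was 26 (74.3%, against 70.2% of coding genes).

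A region found with either estrogen receptor, in both libraries of a group, and in neither PPARα library occurred at 18 of the 35 genes (51.4%), against 42.1% of coding genes and 41.5% at the spans of the 35 genes. Whether the 35 genes differ in this from others was not tested. A region found in all 4 libraries with an estrogen receptor and in neither PPARα library occurred at 0 of the 35, against 0.706% of coding genes. By span, the 16 genes with an ERα region were 4 of 9 under 10 kb (23.9% of coding genes of that span), 3 of 12 from 10 to 30 kb (32.9%), 4 of 9 from 30 to 100 kb (39.7%) and 5 of 5 of 100 kb or more (59.6%). Longer genes held such a region more often among coding genes at large, and the members stood above the coding genes of their class in each class but that of 10 to 30 kb. The longest class held GREB1, NRIP1, PKIB, TPD52L1 and SGK3. Without PPARα+ERα library 1 the count with either receptor was 28 (80.0%, against 72.8% of coding genes), and without library 2 it was 24 (68.6%, against 69.1%), so that the members' higher share was not seen without that library.

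**Figure D4:**
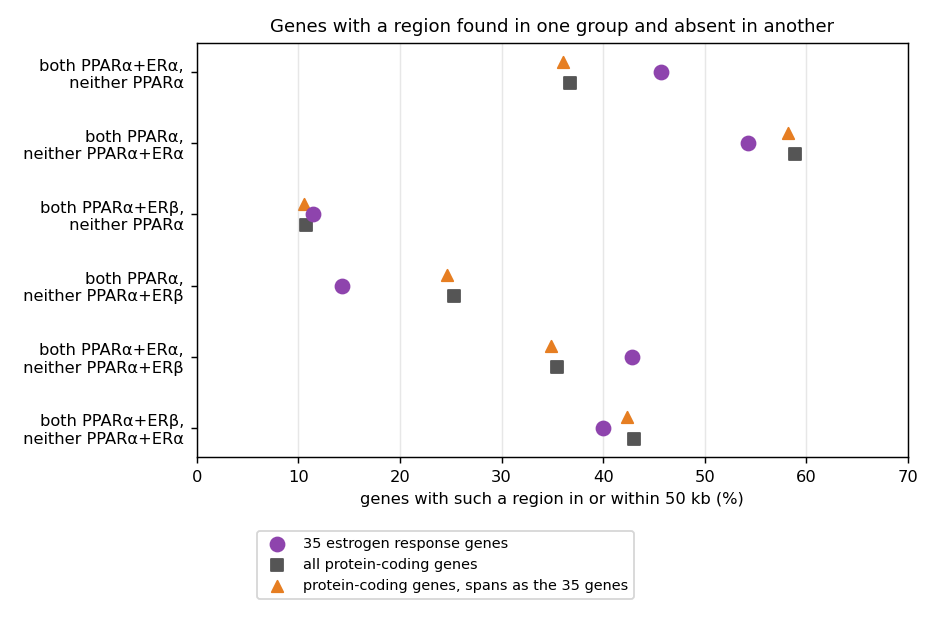
Percentage of genes with a region found in one group and absent from another, for the 35 estrogen response genes (circles), for all 19974 protein-coding genes (squares) and for coding genes averaged over the span classes of the 35 (triangles). The circles lie right of both others for regions found with ERα (45.7% and 42.9%), left of them for regions found with PPARα alone and lacking with ERβ (14.3%), and close to them for regions found with ERβ and lacking with PPARα alone (11.4%).

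Counted per 10000 peaks of a list, both PPARα+ERα libraries were above both PPARα libraries at 5 of the 35 genes (14.3%), against 18.6% of coding genes. These were GREB1, NRIP1, PKIB, EBAG9 and HSPB8. Both were below at 6 (17.1%), against 29.2% of coding genes. Both PPARα+ERβ libraries were above both PPARα libraries at 8 (22.9%), against 21.7%, and below at 3 (8.57%), against 9.88%. Equal numbers of peaks give unequal scaled values when lists differ in length, so the scaling can itself set the order. The 8 include KRT13 and KRT19, each with 1 and 1 peaks with ERβ and 1 and 1 with PPARα alone. At 3 genes, RET, CCND1 and RAPGEFL1 (8.57%), both ERα libraries were below and both ERβ libraries above the PPARα libraries, against 5.79% of coding genes. In unscaled numbers of peaks this was so for 0 of the 35 and for 0.145% of coding genes. None of these shares stood clearly above that of genes at large.

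Other genes of the pathway were counted in the same way. Of 20 estrogen receptors, coregulators and partner factors, 9 (45.0%) had a region found with ERα and not with PPARα alone, 13 (65.0%) one found with PPARα alone and not with ERα, and 5 (25.0%) one found with ERβ and not with PPARα alone. ESR1, the gene of ERα itself, had 5 and 6 peaks in the PPARα+ERα libraries, 5 and 8 in the PPARα+ERβ libraries and 5 and 6 in the PPARα libraries. It was the only gene of the 2 lists with a region in all 4 libraries with an estrogen receptor and in neither PPARα library. Of 30 further estrogen response genes, 10 (33.3%) had a region found with ERα and not with PPARα alone, 14 (46.7%) the opposite, and 2 (6.67%) one found with ERβ and not with PPARα alone. IRS1, an adaptor of insulin receptor signalling, had 5 and 5 peaks with ERα, 1 and 1 with ERβ and 0 and 1 with PPARα alone. PGR, the progesterone receptor gene, had 4 and 1 with ERα, 2 and 3 with ERβ and 5 and 6 with PPARα alone. The 30 further genes thus gave a lower share with ERα (33.3%) than the 35 described here (45.7%), and lay near the 36.7% of coding genes at large, and the difference between the lists was not tested.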

How the data were processed

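Per the submitters' processing notes, the software was MACS2 2.2.7.1, with Bowtie 1.0.1, Trim Galore 0.6.4, DiffBind 2.16, ChIPseeker 1.18.0 and HOMER 4.11 also named. Their roles are not stated there, nor is the control, and the builds given are GRCh38.p13 and hg38. The deposited narrowPeak lists give, per peak, the authors' score, a fold (a ratio of the summit over the local background), and the −log10 p and −log10 q of the summit. The agonist of PPARα appears in the labels as Wy13643 and as Wy14643. Library numbers follow accession order and pair nothing.

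The deposited fold was read as (fragments + 1)/(background + 1) and the deposited −log10 p as a Poisson tail, and both were solved for the fragments at a summit and the background. For 100% of peaks a whole number of fragments gave back the −log10 p to within 0.001. Peaks overlapping by at least 1 bp were merged into regions on chromosomes 1 to 22 and X. Gene spans and promoters are from RefSeq GRCh38.p14. SciPy 1.17.1, NumPy 2.4.6, pandas 2.3.3 and Matplotlib 3.10.9 were run under Python 3.11.15. On simulated lists, 200 of 200 planted regions and 998 of 998 fragment numbers were recovered. The members, the 2 other gene lists and the tests were chosen with earlier results of these data known. Every member with a region found in one group and absent from another was named, with its highest ranked region (by the lower of the 2 within-list percentiles of −log10 q). Alternatives were other windows, a stricter threshold, lists of equal length, linking by summits, low-background peaks, leaving out each library, and all genes as background. No coordinates or sequences are given for the genes on chromosome 8.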

Additional observations from a re-analysis of the deposited data

Results flagged for a closer look

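At 3 of the 35 genes the estrogen receptor groups lay on opposite sides of the PPARα libraries. Counted per 10000 peaks of the list, RAPGEFL1 had 2.29 and 2.57 peaks with ERβ, 0.816 and 0.726 with ERα and 1.26 and 2.204 with PPARα alone, so that ERβ exceeded ERα by a mean of 1.66. RET had 1.15 and 2.15 with ERβ, 0.408 and 0 with ERα and 0.840 and 0.551 with PPARα alone, a mean difference of ERβ minus ERα of 1.44. CCND1 had 1.72 and 0.858 with ERβ, 0.408 and 0.363 with ERα and 0.840 and 0.551 with PPARα alone, a mean difference of 0.903. Each rests on 0 to 8 peaks per library, both contrasts share the PPARα libraries, and the difference was not tested. The same order was found for 5.79% of coding genes, against 8.57% of the 35. Without scaling to the length of the lists it was found for 0 of the 35 and for 0.145% of coding genes. For RET and CCND1, 1 of the ERβ libraries held 2 peaks, as did each PPARα library. RAPGEFL1 had 4 and 6 peaks with ERβ against 3 and 8 with PPARα alone. The lengths of the lists thus had a part in the order at all 3 genes.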

How the results depend on the processing

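In what follows each count is of the 35 genes. Windows of 10 kb were set first, in place of 50 kb. A region found with ERα and not with PPARα alone occurred at 9 genes (25.7%, against 20.2% of coding genes). The opposite occurred at 10 (28.6%, against 32.9%). One found with ERβ and not with PPARα alone occurred at 1 (2.86%, against 5.22%) and the opposite at 3 (8.57%, against 13.1%). One found with ERα and not with ERβ occurred at 9 (25.7%, against 19.5%) and the opposite at 4 (11.4%, against 22.8%). One found with either receptor occurred at 10 (28.6%, against 23.2%). For summits at most 3 kb from a gene end the count was 2 for PPARα alone and not ERα (6.58% of coding genes), 0 for ERβ and not PPARα alone (0.901%), and 1 for each of the other 5 comparisons. The 1 gene (2.86%) compares with 4.37% of coding genes for ERα and not PPARα alone, 1.79% for PPARα alone and not ERβ, 4.08% for ERα and not ERβ, 4.25% for the opposite and 5.17% for either receptor. With windows of 100 kb, the count for PPARα alone and not ERβ was 10 (28.6%, against 37.9% of coding genes). With lists of equal length it was 3 (8.57%, against 13.7%). Among peaks with a background of at most 3 times the genome-wide level, the count was 4 for PPARα alone and not ERα (11.4%, against 13.1%). It was 1 for ERβ and not PPARα alone (2.86%, against 3.53%) and 1 for the opposite (2.86%, against 3.28%). For ERβ and not ERα it was 2 (5.71%, against 10.2%).

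Leaving out each library in turn gave 16 to 28 genes for ERα and not PPARα alone (36.9% to 71.1% of coding genes). For the opposite it gave 19 to 31 (59.5% to 83.1% of coding genes). It gave 5 to 13 for ERβ and not PPARα alone (15.8% to 38.8% of coding genes). For the opposite it gave 5 to 23 (32.0% to 66.2% of coding genes). It gave 15 to 27 for ERα and not ERβ (36.2% to 70.1% of coding genes) and 14 to 26 for the opposite (44.3% to 70.2%). For either receptor it gave 19 to 28 (44.9% to 72.8% of coding genes). By construction such a count can only rise or stay when a group is left with 1 library, and the share of coding genes moved with it. Without PPARα+ERα library 2, the 3 shares that stood above coding genes with ERα or with either receptor stood below them.

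The mean share of peaks in members' windows was 0.121% with ERα, 0.0909% with ERβ and 0.0825% with PPARα alone for windows of 10 kb, and 0.378% with ERα, 0.381% with ERβ and 0.314% with PPARα alone for windows of 100 kb. Among low-background peaks it was 0.153% with ERβ. The other 64 values stayed within 1.5 times the count, or within 1 SD of the share. With all genes of the table as background, the share of genes with a region found with ERα and not with PPARα alone was 29.6%, and with ERβ and not with PPARα alone 7.72%. No paired analysis was possible because the labels give no replicate numbers. With 2 libraries in a group, the spread is poorly known, and where a list holds few fragments at a site, a missing peak may be one not detectable at that depth.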
